A study of Mus musculus with 4 samples.

Results

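The Dclk1 locus of mouse chromosome 3 was examined for Pitx1 chromatin immunoprecipitation peaks in the window chr3:54900000-55450000 (mm9), which is 550 kb long. All peaks with their midpoint in the window were taken from the deposited list of each Pitx1 library. They were 25 of the 14753 peaks of replicate 1 and 25 of the 25027 peaks of replicate 2. Peaks of the 2 lists that overlap by at least 1 bp were joined into a replicated region, and the window held 17 of the 10274 such regions in the series. The window was selected on the number and scores of its peaks in these same lists, so their number, sharing and strength are described without a test. The approximate span of Dclk1 that came with the window is 55.05 to 55.34 Mb, given to 10 kb only.

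The series mapped DNA bound by Pitx1 in hindlimb buds of mouse embryos (strain ICR, genotype wild type, age E11.5). It holds 2 Pitx1 ChIP libraries, made with the same lot of antibody, and 2 libraries of input DNA made without one. All 4 libraries share the strain, genotype, tissue and age. The input libraries have no peak list and are not analysed here. Whole buds were used, so a peak does not say in which cells of the bud the protein was bound. Material from 3 ChIPs was used for the libraries, and it is not stated if the ChIP replicates are separate litters, so their differences may be technical. No read counts were used, so the depth behind each peak is unknown.

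Pitx1 is a homeodomain transcription factor of the bicoid-related class, made in the early hindlimb bud and not in the forelimb bud, where it takes part in giving the leg its identity. Such factors bind short TAATCC-type motifs, often in enhancers that lie far from the gene they act on, in introns or in the stretches between genes. Dclk1 encodes doublecortin-like kinase 1, a protein that joins microtubule-binding doublecortin domains to a serine/threonine kinase domain. It is best known from migrating and growing neurons and from tuft cells of the gut. In the RefSeq table (GRCm38) Dclk1 is 296.8 kb long, against 290 kb for the approximate mm9 span. Its nearest protein-coding neighbour on the upstream side is Sohlh2, which encodes a helix-loop-helix transcription factor of germ cells. On the downstream side it is Nbea, which encodes neurobeachin, a protein of vesicle traffic in neurons. These names give the order of genes only, since positions were not carried between builds.

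Neither list had a Pitx1 peak close to the approximate upstream end of the Dclk1 span. From the approximate start at 55.05 Mb the nearest replicate 1 peak was 46.0 kb away (score 116) and was not shared. The nearest replicate 2 peak was 134.7 kb away (score 225.5). The score is the peak caller's own value, with higher values for stronger peaks. The 250 bases before the first RefSeq start are shown because no peak lay near the approximate place of that start. They are at chr3:55242114-55242363 (GRCm38, plus strand), in a build other than that of the peaks.
Dclk1 promoter: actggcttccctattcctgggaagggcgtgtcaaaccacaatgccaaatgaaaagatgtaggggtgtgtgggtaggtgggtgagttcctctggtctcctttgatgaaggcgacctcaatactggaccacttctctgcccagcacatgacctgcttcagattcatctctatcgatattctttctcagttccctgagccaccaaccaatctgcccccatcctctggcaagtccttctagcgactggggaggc
The letters TAATCC were searched on both strands (GGATTA on the other strand) and would be in capitals. They occurred 0 times here, and in 2054 of 32851 RefSeq promoters of the same length (6.25%). The table holds another Dclk1 start 219.4 kb downstream of the first, also with 0 matches in the 250 bases before it. Whether a peak lies at that start was not determined. Sequences under the peaks are not shown, because no mm9 genome was used here.

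Replicated Pitx1 regions lay in the downstream part of the approximate Dclk1 span and just beyond it. Of the 17 regions, 13 had their midpoint inside the span, 0 before it and 4 after it. Within the span, 2 regions lay before its middle at 55.195 Mb and 11 after it. Density was 4.48 regions per 100 kb inside the span and 1.54 per 100 kb in the rest of the window, a ratio of 2.91. The ratio was 3.59 by the peaks of replicate 1 alone and 1.59 by those of replicate 2 alone. The rest joins the stretch before the span, with 0 peaks of either list, to the shorter stretch after it. These ratios thus do not compare the span with the stretch after it alone. Peaks in the span and after it numbered 20 and 5 in replicate 1, and 16 and 9 in replicate 2. One region after the span, from 55341382 to 55342490, has its midpoint so close to 55.34 Mb that the rounding of the span decides its side. The first replicated region had its midpoint 284.8 kb into the window. Before it lay only 2 peaks of replicate 1 (scores 116 and 111) and 0 peaks of replicate 2. The last replicated region before the window, from 54816550 to 54817213, was 83.1 kb outside it (scores 305 and 358), which puts 367.9 kb between the midpoints of these neighbours. At the other end, the last region inside was 18.7 kb from the edge by its replicate 2 peak (score 117). A replicate 2 peak of score 61.2 fell 0.652 kb outside it.

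**Figure D1:**
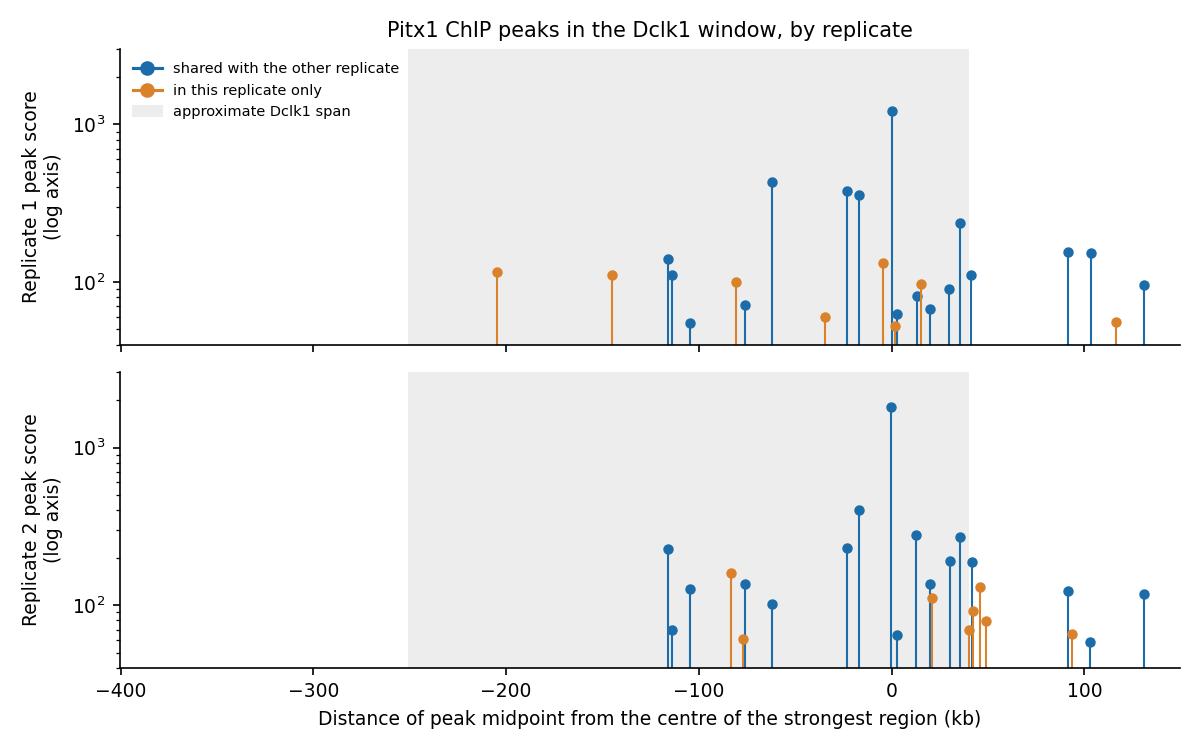
Peak score (log axis) against the distance of each peak's midpoint from the centre of the strongest region, in kb, for replicate 1 (upper panel) and replicate 2 (lower panel). Each stem is 1 peak, blue where it overlaps a peak of the other replicate and orange where it does not, and grey marks the approximate Dclk1 span. The highest stem is the same region in both panels (scores 1215 and 1813), and the left part of the window holds 2 unshared replicate 1 peaks only.

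One region stood far above the others in both libraries. It spans 2674 bp from 55299180 to 55301853, and scored 1215 in replicate 1 (rank 7 of 14753) and 1813 in replicate 2 (rank 17 of 25027). By the sum of its ranks it was the fifth strongest of all 10274 regions. The next highest peak of the window scored 432 in replicate 1 and 402 in replicate 2, and these belong to different regions. Its 11 neighbouring regions within 100 kb scored a median of 111 in replicate 1 (62.4 to 432) and 187 in replicate 2 (64.8 to 402). The strongest region was also the longest of the 17. Its midpoints differed by 304.5 bp between the libraries, the largest offset in the window, so it is not shared if midpoints must lie within 250 bp.

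The regions that followed it in summed rank lay on both sides. The next spans 55282714 to 55284309, 17.0 kb upstream of the strongest, and scored 355 in replicate 1 against 402 in replicate 2. It and the strongest were the only 2 of the 17 in the highest score decile of both lists, which held 10.5% of all replicated regions. The third, from 55276784 to 55277806, scored 377 and 229 and its peak midpoints coincided (offset 0 bp). These 3 regions lie within 25.1 kb of each other. On the downstream side, 35.7 kb from the strongest, the fourth spans 55335501 to 55336930 and scored 238 and 272. The fifth, from 55184257 to 55185275, is the most upstream region of the window, 115.8 kb from the strongest, and scored 139 and 225.5. The sixth is the region at the approximate gene end named above, from 55341382 to 55342490, with scores of 111 and 187. Values are given for replicate 1 first and replicate 2 after it.

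Apart from this leading region the peaks ranged over most of the scale of each list, so the group held weak peaks as well as strong ones. Strength is given as the score percentile within a peak's own list, with 100 the strongest. The 25 replicate 1 peaks had percentiles of 6.51 to 99.95 with a median of 68.5 (quartiles 39.0 and 81.6). The 25 replicate 2 peaks had 17.0 to 99.93 with a median of 68.1 (quartiles 43.7 and 81.9). Without the leading region the highest percentile was 97.8 in replicate 1 and 94.55 in replicate 2. The highest score decile, which holds 10% of each list, held 5 of the 25 replicate 1 peaks and 2 of the 25 replicate 2 peaks. These counts include the leading region. Another replicate 2 peak, from 55313015 with score 279, lay just below the limit at percentile 89.95. Within the full lists the window's shared peaks had median percentiles of 69.0 in replicate 1 and 71.7 in replicate 2. Its unshared peaks had 62.9 and 48.4. Ranked anew among shared peaks only, the shared peaks of the window had a median percentile of 58.3 in replicate 1 and 47.5 in replicate 2. Among shared peaks they were thus on the upper side of the middle in one library and on the lower side in the other.

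**Figure D2:**
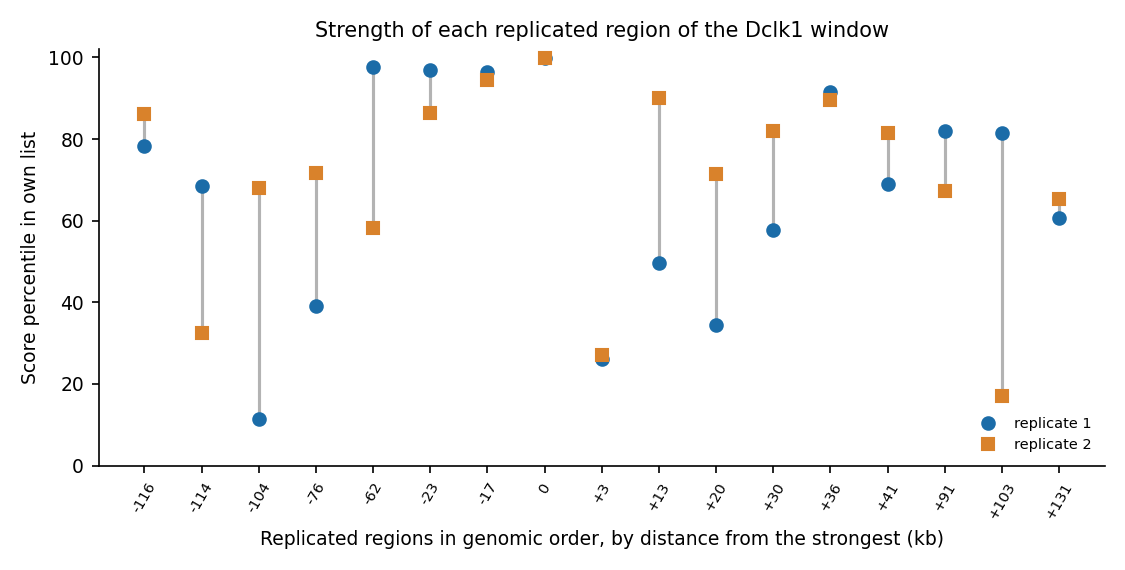
Score percentile in its own list (vertical axis, 100 strongest) of each of the 17 replicated regions of the Dclk1 window, in genomic order and labelled by distance from the strongest region in kb. Blue circles are replicate 1, orange squares replicate 2, and the grey line joins the values of a region. The regions at -23, -17, 0 and +36 kb are high in both, and the region at +103 kb has the widest gap, at 81.6 and 17.0.

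The order of strength differed between the replicates for some of the 17 regions. All 17 regions were made of 1 peak from each list, and the midpoints of these pairs differed by a median of 57 bp (0 to 304.5 bp). Over 9746 pairs on the autosomes outside the window the median was 58.5 bp. Pairs had to overlap, which keeps these offsets small, and the 8 unshared peaks of each list do not enter. Across the 17 pairs Spearman's rank correlation between scores was 0.346, and 0.556 over the other 9746 pairs. Both are descriptions across peaks that share the same libraries. Without the strongest pair, the rank correlation in the window was 0.215 over 16 pairs. The percentile was higher in replicate 1 for 8 regions and in replicate 2 for 9. The absolute difference had a median of 14.8 points (0.0205 to 64.6), against 15.8 points for the 10128 regions on the autosomes outside the window.

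The regions with unlike strength were picked after their values were seen. In 7 of the 17 the percentiles differed by over 30 points, beside 28.2% of all replicated regions. The widest difference was at the region from 55403302 to 55404374, with percentiles of 81.6 in replicate 1 (score 153) and 17.0 in replicate 2 (score 58.1). The region from 55238002 to 55239021 held the second highest replicate 1 score of the window (432, percentile 97.8) but was at percentile 58.3 in replicate 2 (score 101). The opposite order was seen from 55195775 to 55196413, with percentiles of 11.48 and 68.1, and from 55312994 to 55313929, with 49.7 and 89.95. Only the region next to the strongest, from 55303061 to 55303708, was below the median of both lists, with percentiles of 26.0 and 27.1. It lies 1.21 kb from the edge of the strongest region.

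**Figure D3:**
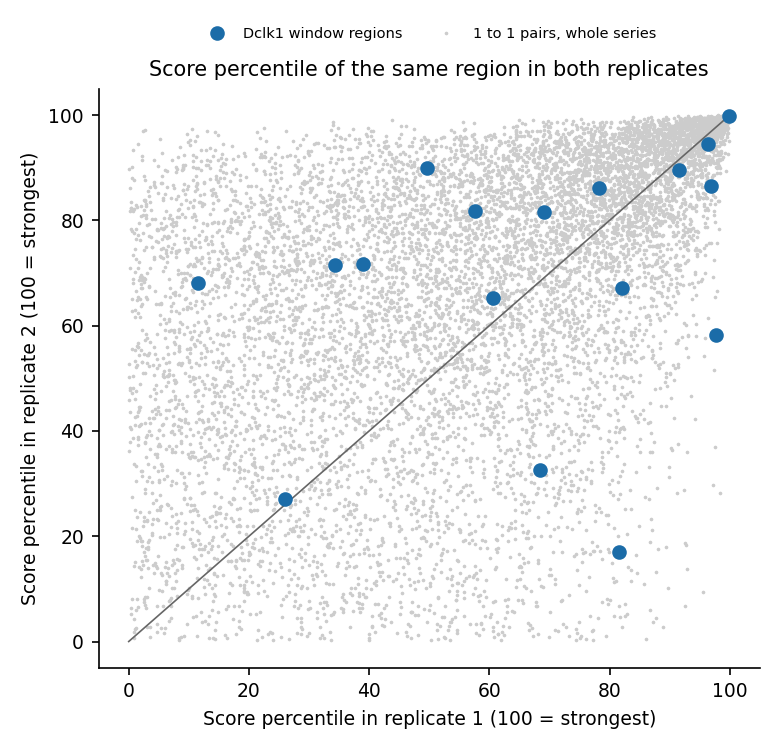
Score percentile in replicate 1 (horizontal) against that in replicate 2 (vertical) for the 17 replicated regions of the Dclk1 window (blue) and all peaks paired 1 to 1 in the series (grey points), with the line of equal percentiles. The window's regions spread widely around the line (rank correlation 0.346), and the strongest region sits at the upper right corner.

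Sharing was equal in both directions in this window. In replicate 1, 17 of 25 peaks were shared (68.0%, with 48.4 to 82.8% as the 95% Wilson interval), beside 69.8% of all replicate 1 peaks. In replicate 2 it was also 17 of 25 (68.0%, 48.4 to 82.8%), beside 42.6% of all replicate 2 peaks. The intervals cover counting error only. Although the replicate 2 list is the longer one, both lists had the same number of peaks here. If the window's peaks were shared at the rate of all peaks of the same score decile, 19.2 of the 25 replicate 1 peaks and 13.0 of the 25 replicate 2 peaks would be shared. Other windows of this length that were picked for 20 or more peaks of 1 list, whatever their sharing, give another yardstick. In 114 such windows of replicate 2 a median of 50% of peaks were shared (quartiles 40.9 and 61.4%), with 103 windows below the Dclk1 window and 10 above it. In 14 such windows of replicate 1 the median was 77.9%, with 2 below the Dclk1 window and 12 above it. These windows were picked on 1 list, while the Dclk1 window was picked on both. By replicate 1 peaks only 5 of 4477 windows held more, which leaves its replicate 2 peaks more peaks to overlap. Its place in sharing is thus not separate from how it was chosen.

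Most of the unshared replicate 2 peaks lay beside a region that was already replicated. Replicate 2 had 8 unshared peaks, of which 4 came within 1 kb and 7 within 5 kb of a replicate 1 peak, at a median of 0.768 kb (0.079 to 7.03 kb). The nearest replicate 1 peak was itself shared for all 4 within 1 kb and for 6 of the 7 within 5 kb. That was also so for most such peaks elsewhere on the autosomes, 547 of 682 within 1 kb and 1661 of 2132 within 5 kb. On the autosomes outside the window 4.81% of 14182 unshared replicate 2 peaks came within 1 kb and 15.03% within 5 kb, but peaks of both lists lie farther apart there. The closest, from 55321136 to 55321886 (score 111), was 79 bp from the replicate 1 peak of the region beside it. Replicate 1 also had 8, of which 1 came within 1 kb and 4 within 5 kb of a replicate 2 peak, at a median of 6.51 kb (0.288 to 88.0 kb). The nearest replicate 2 peak was shared for the 1 within 1 kb and for 3 of the 4 within 5 kb. Elsewhere on the autosomes 6.51% of 4380 unshared replicate 1 peaks came within 1 kb and 19.5% within 5 kb. There the nearest replicate 2 peak was shared for 151 of the 285 within 1 kb and for 424 of the 853 within 5 kb. The strongest unshared peaks were from 55217112 to 55217618 in replicate 2 (score 160) and from 55295793 to 55296601 in replicate 1 (score 132). The replicate 2 peak was 1.64 kb from an unshared replicate 1 peak (55219257 to 55220014, score 100.4). The replicate 1 peak of score 132 lies upstream of the strongest region, 2.60 kb from its replicate 2 peak. When peaks up to 1 kb apart were counted as shared, an alternative chosen after these values were seen, 84.0% of the window's replicate 2 peaks and 72.0% of its replicate 1 peaks were shared. Over the whole lists this gave 45.3% and 71.8%. In the window it added only extra peaks beside regions that were replicated without it. It also joined some of these regions to each other, which left 15.

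Replicated regions were closely but unevenly spaced. Midpoints of the 17 regions were a median of 10.1 kb apart (quartiles 6.09 and 19.6 kb, range 1.73 to 49.97 kb). On the autosomes outside the window the median was 89.1 kb (quartiles 26.9 and 258.7 kb). The median gap was 6.22 kb between peaks of replicate 2 alone, and 30.01 kb between regions made from the best 50% of each list. Of the 16 gaps, 7 were under 10 kb, beside 12.6% of 10109 gaps elsewhere on the autosomes. Runs of neighbours under 10 kb apart held 12 regions in 5 runs, and 2 of these runs had 3 regions. The tightest run of 3, at the upstream end, covers 12.2 kb from 55184257 to 55196413. Its members span 55184257 to 55185275, 55186111 to 55186880 and 55195775 to 55196413, with replicate 1 scores of 139, 110.3 and 54.8 and replicate 2 scores of 225.5, 69.0 and 126. The other run of 3 covers 12.4 kb from 55330123 to 55342490, around the approximate end of the gene. The widest gap, 49.97 kb between midpoints, follows that run and ends at the region from 55391271 to 55392533. That region (scores 156 and 123) and the last one, from 55430926 to 55431550 (scores 95.3 and 117), stand alone downstream of the gene. The same holds for the region at 55403302 described above.

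By the number of replicated regions the Dclk1 window was among the densest of its size, although not at the top. It held 17, against a mean of 2.26 and a median of 1 over 4477 windows of 550 kb laid side by side on the 19 autosomes. Of these, 4466 (99.8%) held fewer, 2 held as many and 9 held more, up to 23. By replicate 1 peaks alone (25) 5 windows held more, and by replicate 2 peaks alone (25) 34 windows held more. Peaks in the highest score decile of replicate 1 numbered 5, with 6 windows above and 9 equal. In the highest decile of replicate 2 the count was 2, with 234 windows above and 323 equal. The Dclk1 window was chosen for its peaks and the others were not, which favours it. Of 49135 overlapping windows laid every 50 kb, 99.77% held fewer regions. Windows with 0 regions, 30.1% of all, may include sequence that reads cannot be placed on.

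**Figure D4:**
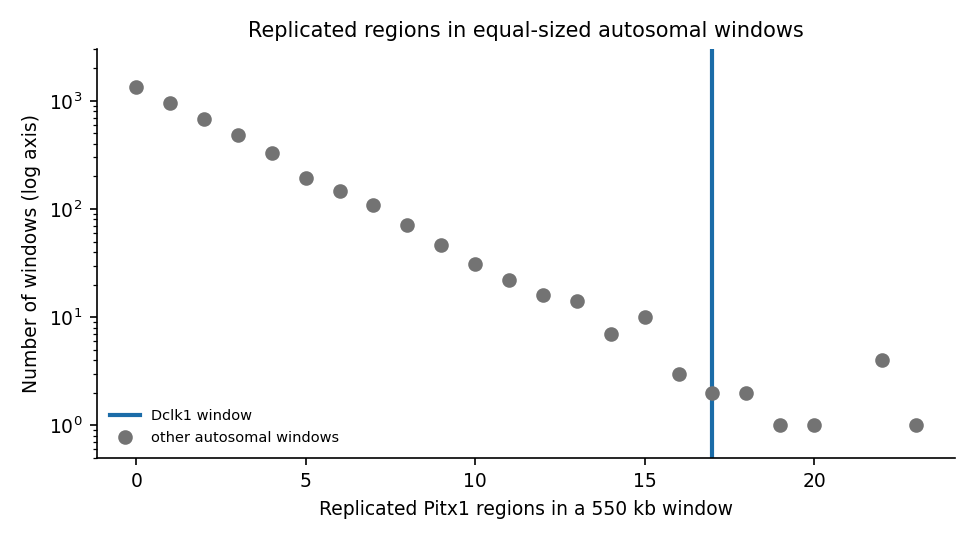
Number of autosomal windows of 550 kb (vertical, log axis) holding each number of replicated Pitx1 regions (horizontal). The blue line marks the Dclk1 window at 17, and grey points are the other 4477 windows, which reach 23.

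The 3 densest of those windows lay on chromosome 13 from 59950001 to 60500000, on chromosome 18 from 55000001 to 55550000 and on chromosome 3 from 66000001 to 66550000. They held 23, 22 and 22 regions, and were picked among windows with 22 by their replicate 1 peaks. Median gaps were 10.1 kb in the Dclk1 window and 13.3, 7.71 and 9.86 kb in these, in that order. The highest replicate 1 score was 1215 in the Dclk1 window, where the median was 110.3. The strongest regions of the other 3 windows scored 509, 386 and 1222 in replicate 1, and 465, 303 and 1744 in replicate 2. In summed rank they were at 448, 1002 and 6 among all regions, against 5 in the Dclk1 window. Of replicate 1 peaks, 68.0% (48.4 to 82.8%) were shared in the Dclk1 window and 85.2% (67.5 to 94.1%), 82.8% (65.5 to 92.4%) and 78.6% (60.5 to 89.8%) in the others. Of replicate 2 peaks, 68.0% (48.4 to 82.8%) were shared in the Dclk1 window and 73.5% (56.9 to 85.4%), 61.9% (46.8 to 75%) and 75.9% (57.9 to 87.8%) in the others. The intervals overlap within each replicate, and no test of the difference was made, since all 4 windows were picked for their peaks.

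Peak width and the additional list of positions were not used in choosing the window. Peaks of the window were a median of 877 bp wide in replicate 1 and 697 bp in replicate 2. On the autosomes outside it the medians were 798 and 456 bp. Of the 17 pairs, 16 were wider in replicate 1. The median ratio of widths was 1.26 over all 17, against 1.45 over the other pairs on the autosomes. Replicate 1 peaks were thus wider across the series too, where the share of wider pairs was not counted. The part of peak strength in these widths was not tested. Of the 10625 positions of 1 bp in the additional list, 16 lay in the window, 1 in each replicated region except the strongest. All 16 fell inside a peak of both lists. The same counts over the whole series were not made, so this is not shown to be particular to the window. How the positions were made was not determined. If they were drawn from these peak lists, the overlap was fixed in advance. Their median distance was 46.2 bp to the replicate 2 midpoint and 79 bp to the replicate 1 midpoint.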

How the data were processed

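The submitters' processing notes list build mm9 and, as tools, MACS 1.4.2, Bowtie 0.12.8, bedtools 2.16.2 and CASAVA (1.7 and 1.8.2). Their roles, the peak caller's settings and how the input was used are not stated there. The authors deposited a peak list per ChIP library, with a score for each peak that has no header. The names number the peaks from 1 in each list, so the lists come from separate calls. Scores were compared as ranks or percentiles within a list. A further deposited list gives 1 bp positions with no score.

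Positions are counted from 1. Peaks were assigned by midpoint. Gaps run between midpoints unless an edge is named. Equal-sized windows start at the first base of each autosome, run to the last peak and leave out those touching the Dclk1 window. The regions named were the 6 with the lowest summed rank, the tightest run of 3 or more, the strongest unshared peak of each list and the widest gap. Others are said to be picked after their values were seen. The members and lists were chosen with earlier results of these data known. Values were computed with pandas 2.3.3, numpy 2.4.6 and scipy 1.17.1 under Python 3.11.15, with plots by matplotlib 3.10.9. The counting steps were tested on simulated data.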

Additional observations from a re-analysis of the deposited data

How the results depend on the processing

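No paired analysis was possible because only ChIP libraries have peak lists, and replicate numbers are shared with the inputs alone. Of 43 alternative values, 31 stayed within a set tolerance and 12 moved. The tolerance was 1.5 times for counts, the binomial interval for shares and 0.05 for the rank correlation. For medians and ratios it was the standard deviation of the values of the 2 replicates. For spacing and the density ratio, those same values were among the alternatives judged. The number of replicated regions was 10 when only the best 50% of either list were kept and 5 with the best 25%, and 14 to 17 otherwise. The share of windows with fewer regions was 99.46% with the best 50%, 98.7% with the best 25% and 99.89% when overlap had to reach 50% of both peaks. It was 99.06 to 99.84% with either replicate left out. With the best 50%, 58.8% of the window's replicate 1 peaks were shared (10 of 17), beside 74.4% of all those kept. With the best 25% it was 55.6% (5 of 9) beside 76.5%. For replicate 2 it was 55.6% beside 44.8% with the best 50%, and 55.6% beside 45.6% with the best 25%. Median spacing was 30.01 kb with the best 50%, and 6.22 to 10.1 kb with either replicate left out. The ratio of density inside the approximate gene span to the rest of the window was 2.91, and 1.59 to 3.59 with either replicate left out. That rest includes the empty stretch before the span. Ranked anew among shared peaks only, the window's shared peaks had a median percentile of 58.3 in replicate 1 and 47.5 in replicate 2. Within the full lists the same peaks had medians of 69.0 and 71.7. The rank correlation of scores without the strongest pair was 0.215. With peaks up to 1 kb apart counted as shared, 84.0% of replicate 2 peaks were shared. Causes were not tested. Lists cut to their best peaks hold fewer peaks by construction. Since read depth is unknown, a peak missing from 1 list may lie below its threshold.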
